A study of Mus musculus with 8 samples.

Results

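Elastic fibres give stretch to connective tissue. Tropoelastin, encoded by Eln, is deposited on microfibrils built from the fibrillins Fbn1 and Fbn2, the fibulins bridge the partners and recruit the cross-linking enzymes, and the lysyl oxidases Lox and Loxl1 join tropoelastin molecules, and in the case of Lox also collagen, into an insoluble network. Fibrillin microfibrils also hold latent TGF-beta in the matrix. Bone itself is poor in elastin, but cells of the osteoblast lineage make fibrillins and lysyl oxidase for the collagenous matrix they mineralize. The genes described here are 10 named genes of this system, Eln, Fbn1, Fbn2, Fbln1, Fbln2, Fbln5, Efemp1 (fibulin-3), Efemp2 (fibulin-4), Lox and Loxl1. They were selected on this role and on their counts in WT against cKO cells, a difference already known, so that their values between genotypes are given as a description with no test. All 10 were found by name among the 47643 named genes of the expression table, and all 10 passed the filter on low counts. Eln, at 9 and 7 counts in WT, and Fbn2, at 32 and 7, passed it only through their cKO libraries.

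The cells were bone marrow mesenchymal stem cells (MSCs) of C57BL/6 mice, flushed from tibiae and femurs, and every sample was labelled as kept for 2 days in osteogenic medium with dexamethasone at 100 nM, β-glycerophosphate at 5 mM and ascorbic acid at 50 µg/ml. RNA-seq covered 2 libraries labelled wild type (WT), which the study calls Mettl3fl/fl, and 2 of Prx1-Cre;Mettl3fl/fl cells (cKO), in which Cre under the Prx1 promoter, active in limb mesenchyme, removes exons 2 and 3 of Mettl3, the m6A methyltransferase. Prx1-Cre is not known to act in haematopoietic cells, so any that remained in the culture would keep the gene. A separate experiment, MeRIP-Seq, recovered RNA fragments carrying N6-methyladenosine (m6A) with an antibody in 2 immunoprecipitates and 2 inputs of MSCs, for which the genotype was not varied. The age of the mice behind these libraries and the number of mice in each are not given in the sources used here, so the p-values measure only the spread between these libraries.

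A library held 23978099 to 34106693 counts. Levels are given as CPM (counts scaled to a library of 1000000 counts) adjusted by TMM factors, and between genes as TPM, the deposited values per transcript length that sum to 1000000 in each library. In a comparison of replicate counts, in which sampling noise alone gives a chi-square over degrees of freedom near 1, the WT pair gave 32.6 (15223 genes) and the cKO pair 1.82 (14742 genes). The labels do not say that the cKO libraries came from separate cultures, and they may be repeats of the same culture, in which case every SE and adjusted p between the genotypes is too small. With the cKO libraries summed to 1 sample, 2012 genes in place of 4677 were called. Mettl3 stood at 17.63 and 16.91 CPM in WT and at 17.5 and 16.32 CPM in cKO, and since the counts include exons outside the deleted part, its level does not check the labels. Markers of mesenchymal stromal cells summed to 758.3 to 830.3 CPM, and 8 of 8 were counted in every library, but 3 were higher and 4 lower in cKO. Among them, Thy1 stood at 3.934 and 1.91 CPM in WT and at 74.66 and 69.4 CPM in cKO, and Nt5e at 12.28 and 12.31 CPM against 2.848 and 2.039 CPM. Macrophage markers, 8 of 8 also counted in every library, summed to 14620 and 19640 CPM in WT and to 19400 and 19510 CPM in cKO. Lyz2 alone held 10980 and 15930 CPM in WT and 15630 and 15710 CPM in cKO. Of the 8 markers, 1 was higher in cKO (Ptprc) and none lower. The cultures therefore held RNA of that kind in both genotypes. None of the 3 erythroid markers was counted in every library.

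Of 10 elastic fibre genes, Efemp1, Fbn1, Fbn2 and Eln lay 2.8 to 9.78 times higher in cKO than in WT, Efemp2 and Lox lay lower, and Fbln2 and Fbln5 did not separate the genotypes. Across all 15327 genes tested with edgeR's quasi-likelihood method, 30.5% had an adjusted p under 0.05, 13.7% being higher and 16.8% lower in cKO. The split was 2100 genes higher and 2577 lower, and in the limma fit on log2(TPM + 0.1) it was 1636 higher and 1293 lower. Among the 10 genes the same threshold was passed by 5 higher and 2 lower genes. Their groups did not overlap for 8 of 10, beside 68.9% of all genes tested. These counts follow from how the genes were selected and carry no weight of their own. The median log2 difference was 0.30 over the 10 genes and -0.0038 over all genes tested. In cultures of mixed cells, fewer cells of a type and less RNA per cell cannot be told apart.

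**Figure D1:**
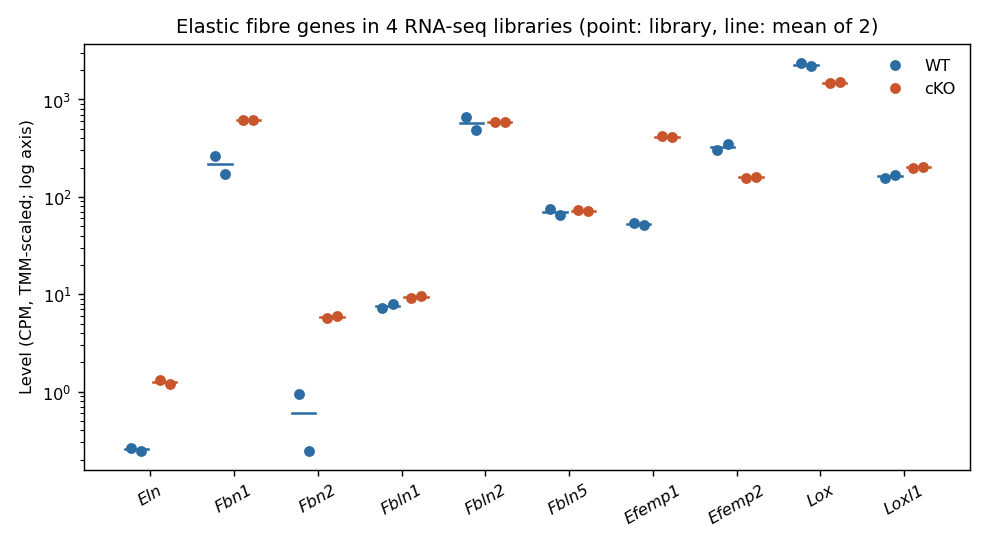
Level of each of the 10 elastic fibre genes in the 4 RNA-seq libraries, in CPM on a log axis. Each point is 1 library and each line the mean of 2. Efemp1, Fbn1, Fbn2 and Eln lie higher in both cKO libraries, Efemp2 and Lox lower, and Fbln2 and Fbln5 overlap between the genotypes.

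Tropoelastin is the elastic core of the fibre. Eln (ENSMUSG00000029675, chr5:134702593-134747323 in GRCm38, minus strand) was read only 9 and 7 times in WT and 32 and 38 times in cKO. That corresponds to 0.2662 and 0.2476 CPM in WT and 1.321 and 1.192 CPM in cKO. Both cKO libraries lay above both WT libraries, with a log2 difference of 2.26 (SE 0.376), but in every library the core protein of the fibre was among the least represented of the 10 genes, at 0.09 to 0.56 TPM.

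Fibrillins form the microfibril scaffold. Fbn1 (ENSMUSG00000027204, chr2:125300594-125507993, minus strand), the main fibrillin of postnatal tissue, stood at 265.4 and 171.5 CPM in WT and at 612.7 and 609.5 CPM in cKO. The cKO libraries nearly coincided while the WT libraries differed 1.55-fold, and the log2 difference was 1.48 (SE 0.187). It came to 1.84 without WT replicate 1 and to 1.20 without WT replicate 2. An annotated gene on the opposite strand, Gm9913, overlaps its exons and held only 85 counts over the 4 libraries.

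Fbn2, on chromosome 18 (ENSMUSG00000024598), is the fibrillin best known from embryonic tissue and early assembly. It had 32 and 7 counts in WT and 137 and 192 counts in cKO, or 0.9465 and 0.2476 CPM against 5.654 and 6.024 CPM. Both cKO libraries were higher, but the WT libraries differed 3.82-fold, so the size of the difference is loosely fixed. Its log2 difference was 3.23 (SE 0.435), 2.62 without WT replicate 2 and 4.54 without WT replicate 1. On the log2(TPM + 1) scale, which compresses low levels, it was 0.73.

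Fibulins 3 and 4 are short fibulins that share a domain plan. Fibulin-4 is needed for elastic fibre formation and for bringing Lox to the fibre. Efemp1, which encodes fibulin-3 (ENSMUSG00000020467, chr11:28853204-28926743, plus strand), stood at 53.63 and 51.79 CPM in WT and at 416.9 and 410.9 CPM in cKO. Within each genotype the libraries differed by at most 1.04-fold, and between genotypes 7.85-fold, a log2 difference of 2.97 (SE 0.0623) that ranged from 2.95 to 3.06 over the alternative fits. Efemp2, which encodes fibulin-4 (ENSMUSG00000024909, chr19:5473973-5481853, plus strand), moved the opposite way, with 304.6 and 345.1 CPM in WT and 156.7 and 161.7 CPM in cKO. The groups did not overlap, and the log2 difference was -1.03 (SE 0.0769).

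Set per length, the order of this pair turned over between the genotypes. Efemp2 held 9.68 and 11.1 times the TPM of Efemp1 in the WT libraries and 0.675 and 0.681 times in the cKO libraries. The summed TPM of the 10 genes hardly differed, at 1597.8 and 1486.2 in WT and 1523.6 and 1528.2 in cKO. That is 0.149% to 0.160% of a library. Without Lox the sum was higher in cKO, at 980.6 and 976.1 against 792.3 and 760.5 in WT. Within the sum of all 10 genes, Efemp1 made up 2.58% and 2.65% in WT and 22.3% and 21.8% in cKO. Efemp2 made up 25.0% and 29.4% in WT and 15.1% and 14.8% in cKO.

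**Figure D2:**
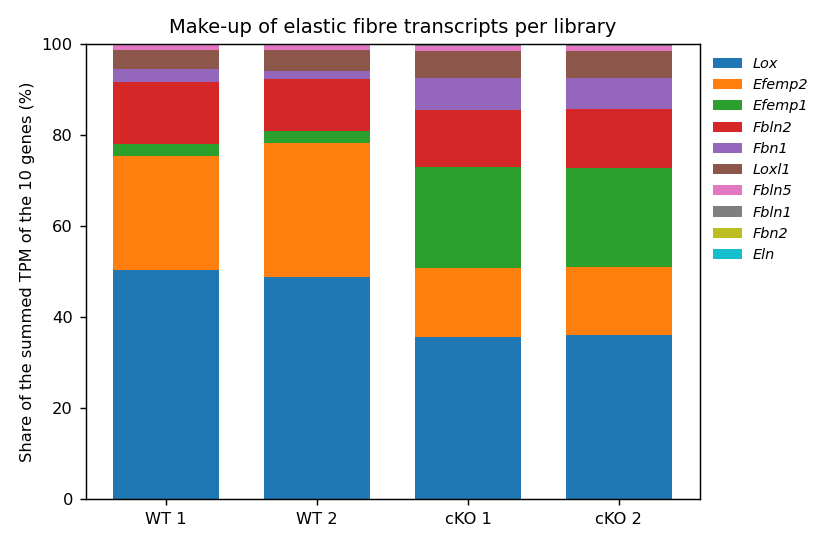
Share of each gene in the summed TPM of the 10 elastic fibre genes, in percent, with 1 bar for each RNA-seq library. Efemp1 takes 2.58% and 2.65% in WT and 22.3% and 21.8% in cKO, while Lox takes 50.4% and 48.8% in WT and 35.6% and 36.1% in cKO.

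The longer fibulins and fibulin-5 differed little. Fbln1 (ENSMUSG00000006369, chr15:85205949-85286535, plus strand), a matrix and plasma protein that binds fibronectin, stood at 7.247 and 7.889 CPM in WT and at 9.039 and 9.538 CPM in cKO. The groups did not overlap, with a log2 difference of 0.30 (SE 0.121). Fbln2 (ENSMUSG00000064080, chr6:91212455-91272540, plus strand), which binds fibrillin and perlecan, stood at 654 and 485.7 CPM in WT with the cKO libraries between these values at 584.2 and 585.2 CPM. Its log2 difference of 0.04 (SE 0.132) became 0.27 without WT replicate 1 and -0.16 without WT replicate 2. Fbln5 (ENSMUSG00000021186, chr12:101746565-101819055, minus strand), which tethers tropoelastin to cells and to Loxl1, stood at 75.43 and 64.99 CPM in WT and at 72.72 and 71.07 CPM in cKO. These groups overlapped too, with a log2 difference of 0.03 (SE 0.0842) that became 0.15 without WT replicate 1 and -0.07 without WT replicate 2.

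Lysyl oxidases oxidize lysines of tropoelastin and collagen so that cross-links can form. Lox, on chromosome 18 (ENSMUSG00000024529), was the most abundant of the 10 genes by TPM in every library, with 2351 and 2195 CPM in WT and 1486 and 1502 CPM in cKO. The groups did not overlap and the log2 difference was -0.61 (SE 0.0609). Loxl1 (ENSMUSG00000032334, chr9:58287723-58313212, minus strand), the enzyme bound by fibulin-5, lay slightly higher in cKO, with 199.9 and 203.7 CPM against 157.6 and 167.9 CPM and a log2 difference of 0.31 (SE 0.0617). The ratio of Lox to Loxl1, in TPM, was 12.1 and 10.4 in WT and 6.07 and 6.03 in cKO.

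Ranked by mean TPM over 2 libraries (± SD), the WT order ran from Lox (766 ± 56.5) over Efemp2 (418 ± 26.2), Fbln2 (195 ± 34.6), Loxl1 (68.1 ± 2.07), Efemp1 (40.3 ± 1.34), Fbn1 (34.7 ± 13.3), Fbln5 (16.2 ± 1.89) and Fbln1 (3.96 ± 0.403) to Eln (0.105 ± 0.0212) and Fbn2 (0.075 ± 0.0636). Neighbours whose libraries overlapped were Efemp1 with Fbn1 and Eln with Fbn2. In cKO, Efemp1 (336 ± 5.23) was second after Lox (548 ± 6.41), followed by Efemp2 (228 ± 2.16), Fbln2 (194 ± 4.12), Fbn1 (105 ± 1.38), Loxl1 (90.4 ± 1.46), Fbln5 (17.8 ± 0.233), Fbln1 (5.14 ± 0.247), Fbn2 (0.785 ± 0.0354) and Eln (0.51 ± 0.0707). No neighbours overlapped there.

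Marker genes of several cell types moved between the same libraries. The chondrocyte markers summed to 3538 and 3575 CPM in WT and to 84.57 and 83.9 CPM in cKO, with 4 of 4 tested lower. Matn1, which was below the filter, lay the other way, at 0.1775 and 0.2123 CPM in WT and 0.5778 and 0.3138 CPM in cKO. Osteoblast markers summed to 2195 and 2298 CPM against 1396 and 1434 CPM (6 of 6 lower). Among these, Col1a1 alone stood at 1896 and 1921 CPM against 1225 and 1259 CPM. Runx2, called lower on counts, stood in TPM at 15.45 and 15.19 against 13.89 and 15.13. Markers of smooth muscle and pericytes summed to 721.1 and 814 CPM against 497 and 508.5 CPM (5 of 7 lower). Adipocyte markers summed to 399 and 405.9 CPM against 756.6 and 763.9 CPM (5 of 5 higher). Endothelial markers summed to 3.638 and 3.219 CPM against 17.13 and 14.5 CPM (2 of 3 tested higher, Kdr and Emcn), while Cdh5 stood at 0.4141 and 0.3892 CPM against 0.1651 and 0.1883 CPM and Pecam1 at 0.2662 and 0.2476 CPM against 0.1651 and 0.1569 CPM. Of the neutrophil markers only S100a8 was counted, at 2.721 and 3.396 CPM against 0.7842 and 0.3765 CPM, and it was lower. S100a9, Ngp and Mpo had no counts in any library. The part of these cell types in the levels of the 10 genes was not tested.

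Genes that act beside the 10 in fibre assembly were counted next, from 3 lists of the wider pathway. These lists were chosen with earlier results of these data known, so their shares called carry no weight of their own. Of 26 assembly partners (other lysyl oxidases, matrix adaptors, integrins and enzymes of collagen and elastin handling), 24 were tested with edgeR's quasi-likelihood method, and 5 rose, 11 fell and 8 did not pass an adjusted p of 0.05. Called genes were 66.7% of this list, beside 30.5% of all genes tested (20.8% against 13.7% higher, 45.8% against 16.8% lower). Their median log2 difference was -0.23. Tnxb, the tenascin that links collagen fibrils and elastic fibres, went from 1.361 and 1.698 CPM in WT to 13.87 and 14.53 CPM in cKO, a log2 change of 3.22 (adjusted p = 5.4e-05) that read 1.21 on the log2(TPM + 1) scale. The basement membrane linker Nid1 rose by 1.28 in log2 units (adjusted p = 0.000709), from 231.2 and 178.4 to 491.9 and 506.3 CPM. Itgb3, an integrin subunit that binds fibrillin and fibronectin, rose by 0.96 (adjusted p = 0.0184), which read 0.63 on the log2(TPM + 1) scale and was not called in the fits on TPM (adjusted p = 0.0667 and 0.0543) or without a cKO replicate (0.0557 and 0.0686).

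Among the assembly partners that fell, Fbln7, a further fibulin, dropped by 3.70 in log2 units (edgeR adjusted p = 4.8e-05), from 21.95 and 28.34 CPM in WT to 1.899 and 1.945 CPM in cKO. Loxl4, another lysyl oxidase, fell by 1.33 (adjusted p = 0.000195), from 30.41 and 28.2 to 11.68 and 11.64 CPM. Fibronectin (Fn1), on which microfibrils assemble and the partner with the highest level per length together with Pcolce, fell by 1.15 (adjusted p = 0.00199), from 5341 and 3895 to 2092 and 2064 CPM. Pcolce, the enhancer of procollagen processing, fell by 0.60 (adjusted p = 0.00295), from 707.6 and 819.4 to 495.5 and 508.6 CPM. More partners were called higher without either WT library and fewer without either cKO library, as was so over all genes tested.

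Of 20 genes of microfibrils and of latent TGF-beta binding, 18 were tested with edgeR, and 7 rose, 6 fell and 5 did not pass, with a median log2 difference of 0.16. Called genes were 72.2% of this list (38.9% higher and 33.3% lower, beside 13.7% and 16.8% of all genes tested). The microfibril-associated glycoproteins were both higher: Mfap5 went from 7.336 and 3.821 CPM to 36.48 and 38.62 CPM, a log2 change of 2.73 (adjusted p = 0.000655), and Mfap2 from 2.366 and 3.184 to 13.21 and 14.5 CPM, a change of 2.33 (adjusted p = 0.000261). Ltbp4, which binds latent TGF-beta and fibulins, rose by 1.29 (adjusted p = 0.00114), from 5.383 and 4.528 to 11.76 and 12.52 CPM. The related Ltbp2 fell by 0.49 (adjusted p = 0.00533), from 173 and 152.2 to 115.5 and 116.6 CPM. It was not called without a cKO replicate (adjusted p = 0.0595 and 0.0535) or with the cKO libraries summed to 1 sample (0.0533).

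Several ADAMTS-like proteins are known to bind fibrillin. Adamtsl3 fell by 1.04 in log2 units (edgeR adjusted p = 0.00153), from 18.16 and 15.99 to 8.75 and 7.938 CPM. Adamtsl2 had 61 counts over the WT libraries and 3 over the cKO libraries, a ratio of 18.4 after scaling with a 95% exact counting interval of 6 to 91.5, which covers counting error only. The genes of the list with the highest levels per length did not pass: Tgfb1 differed by 0.15 (adjusted p = 0.108) and Adamtsl5 by 0.06 (adjusted p = 0.613), though Tgfb1 passed without either WT library. The count of lower genes was 3 in both fits on TPM. It was smaller there and without either cKO library than in the main fit, as was so over all genes tested.

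Of 17 genes that cut elastin or process its partners, 14 were tested, and 2 rose, 3 fell and 9 did not pass, with a median log2 difference of -0.04. The 35.7% called was close to the 30.5% of all genes tested. The gelatinase Mmp2, which also degrades elastin, rose by 0.58 (adjusted p = 0.000777, edgeR), from 172.1 and 173.5 to 257.9 and 259.5 CPM. Of the proprotein convertases, Pcsk6 rose by 0.62 (adjusted p = 0.0121), from 8.962 and 7.642 to 12.55 and 13.02 CPM, and Pcsk5 fell by 1.77 (adjusted p = 0.000345), from 10.32 and 9.906 to 3.095 and 2.855 CPM. Of the cathepsins, Ctsk and Ctsl fell by 0.67 (edgeR adjusted p = 0.00335) and 0.30 (adjusted p = 0.011). The lysosomal Ctss and Ctsa, highest per length, differed by 0.13 (adjusted p = 0.127) and -0.10 (adjusted p = 0.235), but both passed without either WT library, and Ctss also in the fits on TPM. Without either cKO library Pcsk6 (adjusted p = 0.0681 and 0.0989) and Ctsl (0.232 and 0.221) were no longer called, and Pcsk6 was not called in the fits on TPM either (0.0658 and 0.0671). More genes of this list were called without either WT library and fewer without either cKO library, as was so over all genes tested.

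**Figure D3:**
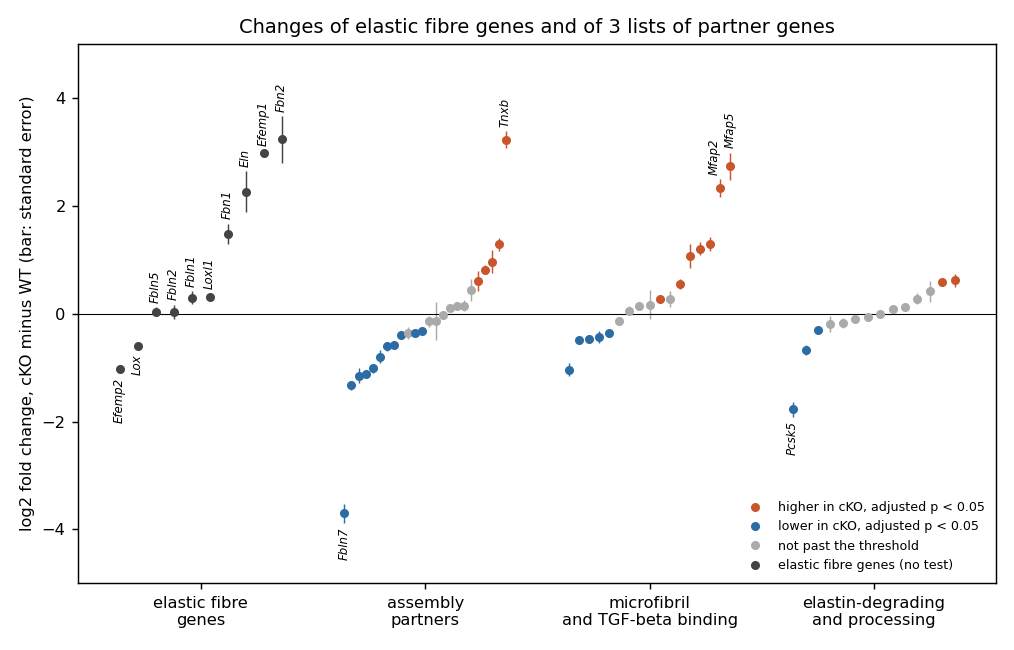
Log2 fold change (cKO minus WT) with its standard error for the 10 elastic fibre genes, shown without a test, and for the tested genes of 3 pathway lists, coloured by an edgeR adjusted p under 0.05. Adamtsl2 is left out because its cKO libraries held 3 counts in all. Of the assembly partners, 5 rose and 11 fell, and of the microfibril genes, 7 rose and 6 fell with Adamtsl2 included.

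The m6A peaks of the 10 genes were then placed by summit on the mm9 genome, the build of the peak list. METTL3 methylates adenosines in the setting GGAC and its variants, and in mammalian mRNA such sites are known to gather near stop codons. Peaks were found on 2 of 10 genes, Fbln2 and Loxl1, with 2 peaks each. Of 13484 genes tested that had a coding transcript, 41.5% held at least 1 peak. Levels here are means of TPM over the 4 RNA-seq libraries of both genotypes. Among genes of 100 TPM and over, 39.1% held a peak, and of the 4 members at that level (Lox, Efemp2, Fbln2 and Efemp1) only Fbln2 did. Efemp1 reached that level only in cKO, at 340.12 and 332.73 TPM, beside 41.27 and 39.37 TPM in WT. Among genes of 20 to 100 TPM the share was 48.8%, where Loxl1 held peaks and Fbn1 none. From 1 to 20 TPM it was 43.5%, with none in Fbln1 and Fbln5, and under 1 TPM it was 14%, with none in Eln and Fbn2. The genes without a peak were Efemp1, Efemp2, Eln, Fbn1, Fbn2 and Lox, and also Fbln1 and Fbln5, which differed little between genotypes. The peaks come as 1 list for 4 samples, which does not show that the transcripts of these genes lack m6A.

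The peaks lay in coding sequence at the 5′ side of both transcripts. In Fbln2, the summits at chr6:91183256 and chr6:91183864 fell in exon 2 of 18, at 186 and 794 nt after the start codon, with a fold enrichment of 1.68 and 1.95 over the caller's local background, a pileup of 118 and 167 and a −log10 q of 4.35 and 11.4. In Loxl1, the summits at chr9:58160666 and chr9:58160075 fell in exon 1 of 7, at 27 and 618 nt after the start codon, with a fold enrichment of 2.2 and 2.89, a pileup of 120 and 161 and a −log10 q of 11.2 and 26.7. The nearest of these summits to a stop codon was 1202 nt away. Of 5549 summits in the coding sequence of a representative transcript, 34.6% were at least as far from the stop codon. The first 34% of the coding sequence, where all 4 of these lay, held 25.8%. Both limits were taken from these 4 summits, so that all 4 met them was fixed, and no bias in position is read from it.

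By fold enrichment the 4 peaks ranked low in the list of 10160, whose median was 4.03. Only 0.61% and 2.43% of peaks had a lower fold than those of Fbln2, and 5.55% and 21.1% a lower fold than those of Loxl1. Their pileup was high by contrast, above that of 85.9% to 97.2% of peaks. The first Fbln2 peak was the weakest of the 4, and with a −log10 q of at least 10 required, 3 of the 4 peaks were left, still on both genes.

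**Figure D4:**
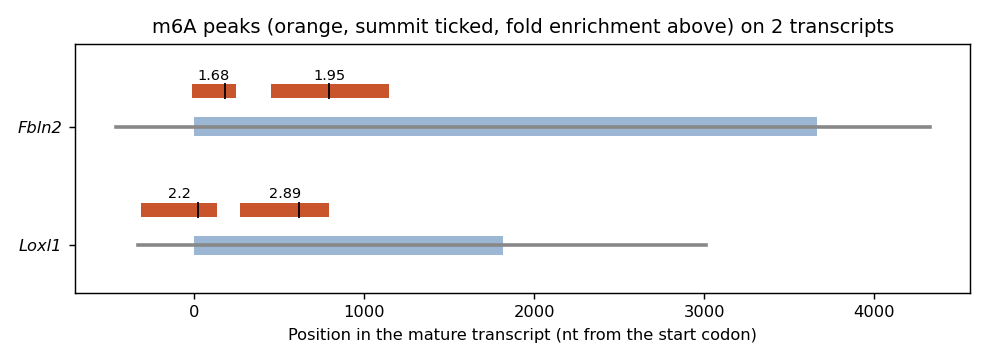
Peaks of m6A along the mature transcripts of Fbln2 and Loxl1, in nt from the start codon. The blue box is the coding sequence, the grey line the whole transcript, the orange bar the part of each peak within the exon with its summit ticked, and the number above it the fold enrichment. All 4 summits lie between 27 and 794 nt after the start codon.

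Up to 101 bases of coding sequence around each summit are shown on the transcript strand, since these are the windows in which the antibody signal of the 10 genes is centred, with GGAC in capitals.
Fbln2 peak 1 (mm9, chr6:91183206-91183306, plus strand): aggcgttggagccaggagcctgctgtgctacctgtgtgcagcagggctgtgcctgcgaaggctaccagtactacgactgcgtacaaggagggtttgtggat
Fbln2 peak 2 (mm9, chr6:91183814-91183914, plus strand): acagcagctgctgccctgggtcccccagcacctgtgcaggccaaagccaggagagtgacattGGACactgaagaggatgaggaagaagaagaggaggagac
Loxl1 peak 1 (mm9, chr9:58160025-58160125, minus strand): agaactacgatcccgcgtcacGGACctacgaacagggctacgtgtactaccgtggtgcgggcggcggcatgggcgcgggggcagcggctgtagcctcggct
Loxl1 peak 2 (mm9, chr9:58160616-58160693, minus strand, from the start codon on): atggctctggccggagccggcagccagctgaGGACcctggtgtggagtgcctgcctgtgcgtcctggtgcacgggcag
A GGAC stood within 5.5 to 27.5 bases of 3 of the 4 summits. The window of the first Fbln2 peak held none, and the nearest GGAC of that peak was 197.5 bases from its summit. Over their whole width, the Fbln2 peaks held 1 and 3 GGAC and the Loxl1 peaks 5 and 6, on the transcript strand.

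GGAC was also counted along the whole spliced transcripts, on the transcript strand. Loxl1 had 9.59 GGAC per kb, a density above that of 98.7% of genes tested, beside a median of 4.26 over these genes. Efemp2 (7.86) and Eln (7.74) came next without holding a peak, and Fbn2 (5.44), Fbn1 (4.93) and Fbln2 (4.81) also lay above the median. Fbln1 (3.83), Fbln5 (3.77), Lox (3.58) and Efemp1 (3.44 per kb) lay below it. Of the 10 genes, Efemp1 had the lowest density and Loxl1 the highest.

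A second sequence feature was read in the 3′ untranslated regions. The miR-29 family is known to target many matrix genes, and its mature sequence carries the seed (bases 2 to 8, in capitals), shown from RefSeq (GRCm38.p6).
mmu-miR-29a-3p: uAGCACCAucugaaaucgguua
mmu-miR-29b-3p: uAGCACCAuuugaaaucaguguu
The letters complementary to the seed, TGGTGCT, occurred in 3 of the 9 genes with an annotated 3′ untranslated region, 3 times in Lox, 2 times in Fbn1 and 1 time in Fbn2, beside 13% of 13037 genes tested. In Fbn1 they stood in these stretches, the match in capitals.
Fbn1 site 1: tttctgttgtctgttTGGTGCTagtaaat
Fbn1 site 2: tgtgagggtttgtaaTGGTGCTtattaag
The levels of Fbn1 and Fbn2 were higher in cKO and that of Lox was lower, so the genes with a match did not share a direction. A match of letters is a description and not evidence of binding, and no miRNA was measured here. These regions were 3158 nt long in Lox, 1635 nt in Fbn2 and 959 nt in Fbn1, beside a median of 928 nt over the genes tested. Those of Fbln5 (4177 nt), Fbln1 (1356 nt) and Loxl1 (1188 nt) held no match. The shares with a match were not adjusted for length, and the transcript used for Eln had no such region.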

How the data were processed

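RNA-seq of 2 WT and 2 cKO libraries of mouse MSCs and 1 m6A peak list from 2 immunoprecipitates and 2 inputs were used. Groups came from the sample labels. The 10 genes and the 3 pathway lists were chosen with earlier results of these data known. For RNA-seq, the authors mapped reads with HISAT2 2.0.4 and deposited estimated counts per gene without normalization. The counting program and its use of strand are not given in the sources used here. They also deposited normalized values headed FPKM that sum to 1000000 in each library and are therefore used as TPM. The positions in that table are those of GRCm38. In the deposited peak list, the authors gave the pileup signal, the fold enrichment as a ratio to local background and the significance as −log10 q. TopHat and MACS2 are named per the labels, without a role, and whether samples were pooled is not stated.

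The estimated counts were rounded to whole numbers, and the 89 of 47732 entries without a gene name, which held 0.110% to 0.125% of the counts, were left out. Genes were filtered with filterByExpr, given TMM factors and compared by the two-sided quasi-likelihood F-test of edgeR 4.0.16 under R 4.3.3, with Benjamini-Hochberg adjustment over 15327 genes and a threshold of 0.05. The smallest exact p that 2 against 2 libraries can give for a single value is 0.333. Named genes were all 10 members and, from each pathway list, the called genes with non-overlapping groups that had the 3 highest and the 3 lowest log2 fold changes, and the 2 genes with the highest mean TPM. Where a name had 2 entries (Ltbp4, Itgam), the one with more counts was used. Alternatives were median-of-ratios size factors, DESeq2 1.42.0, no filter, a replicate block, limma 3.58.1 on log2(TPM + 0.1) and log2(TPM + 1), leaving out each library, and the cKO libraries summed. For 1 sample left in a group, its spread was assumed to be that of the other group. Peaks were placed by summit with the GENCODE vM1 annotation of mm9. Same-numbered libraries had a correlation of deviations of 0.032.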

Additional observations from a re-analysis of the deposited data

How the results depend on the processing

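With 2 libraries a group, counts of called genes depended most on which library was left out. Across all genes, the count higher in cKO ranged from 724 to 4255 and the count lower from 1143 to 4495, and with the cKO libraries summed to 1 sample they were 793 and 1219. The limma fits on log2(TPM + 0.1) and log2(TPM + 1) called 1293 and 1301 genes lower. Leaving out a library gave 3 to 9 assembly partners higher, 2 to 7 microfibril genes lower, 1 to 5 degrading and processing genes higher and 2 to 5 lower, and 3 to 7 of the 10 elastic fibre genes higher. Microfibril genes lower were 3 in each limma fit and 2 with the cKO libraries summed, when 1 degrading and processing gene was called higher. Adamtsl5 turned to -0.0094 and -0.0092 in the limma fits and ranged from -0.0004 to 0.13 when a library was left out, and Ctsa to 0.0993 and 0.0992 in the limma fits, all small log2 differences. These fits moved the median of all genes by 0.1015 and 0.0899, and relative to that Adamtsl5 stood at -0.11 and -0.099 and Ctsa at -0.0022 and 0.0093. Without a WT library the test rests on the cKO pair, whose spread is close to counting noise. The replicate numbers are not known to pair the libraries, and the replicate block called 2253 genes higher and 2628 lower, beside 2100 and 2577 without it. For the other shifts, the cause was not tested. Eln was below the filter of the fits on TPM. Levels of Eln and Fbn2 are limited by 7 to 38 and 7 to 192 counts a library.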
